A study of Rattus norvegicus with 12 samples.

Results

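The claudins and epithelial junction genes are 10 named genes (*Cldn1*, *Cldn3*, *Cldn4*, *Cldn7*, *Cldn8*, *Cldn9*, *Ocln*, *Tjp1*, *Cdh1* and *Epcam*), chosen by name, of which 9 had at least 1 probe set on the arrays, out of 14218 genes measured. No probe set carried the symbol *Cldn9* alone. The list was drawn up around *Cldn8* with earlier results of these same arrays known, so the line differences of *Cldn8*, the gene selected on its pattern, are given as a description and no test of them is read. The data were 12 expression arrays of the anterior pituitary gland of male rats, 3 arrays for each of the congenic lines Ept2, Ept1, Ept6 and Ept9. Every line had COP alleles bred onto the ACI background, on chromosome 3 in Ept2 and in Ept6, on chromosome 6 in Ept1 and on chromosome 10 in Ept9. All rats had carried a subcutaneous implant of 5 mg diethylstilbestrol (DES), a synthetic estrogen, from 9 weeks of age until 21 weeks, a period of 12 weeks, and had received BrdU at 50 mg/kg 4 h before death. The series used here holds no sham-treated rat and no ACI rat, so each line was set against the other 3 lines and an effect of DES itself was not measured.

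Claudins are membrane proteins whose strands close the space between neighbouring epithelial cells at the tight junction, and the claudins that a cell makes set which ions can pass there. Occludin (*Ocln*) lies in the same strands, ZO-1 (*Tjp1*) ties them to actin inside the cell, E-cadherin (*Cdh1*) holds cells together at the adherens junction just below, and *Epcam* encodes an epithelial adhesion molecule that in human and mouse intestine binds claudin-7. The anterior pituitary arises from oral ectoderm, and its hormone cells and the folliculostellate cells between them keep epithelial junctions.

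The start regions of these genes are shown because the question is whether the genes move together. RefSeq's promoter table (build GRCr8) held 7 of the 10 genes, and the 250 bases before the start were searched on both strands for CAGGTG, the E-box that repressors of epithelial genes of the SNAI and ZEB families bind, for AACCGGTT, the site of the epithelial grainyhead-like factors, and for TATAAA, the TATA box. Matches are in capitals, and CACCTG is CAGGTG on the other strand. *Cldn8* is shown as the gene with the line pattern described next (chr11:41364331-41364580, minus strand), *Cldn7* as the gene with the most matches (chr10:55188420-55188669, plus strand) and *Epcam* as the general epithelial gene (chr6:12649679-12649928, minus strand).
Cldn8: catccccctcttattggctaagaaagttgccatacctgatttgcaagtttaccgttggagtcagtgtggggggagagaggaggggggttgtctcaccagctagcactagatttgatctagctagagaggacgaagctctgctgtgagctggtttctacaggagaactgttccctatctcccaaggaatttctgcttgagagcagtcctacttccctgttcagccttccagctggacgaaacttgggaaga
Cldn7: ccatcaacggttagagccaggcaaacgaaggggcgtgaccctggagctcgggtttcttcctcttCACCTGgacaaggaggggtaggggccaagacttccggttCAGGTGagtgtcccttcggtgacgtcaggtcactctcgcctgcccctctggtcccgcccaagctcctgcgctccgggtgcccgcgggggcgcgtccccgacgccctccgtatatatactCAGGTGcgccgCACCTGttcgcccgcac
Epcam: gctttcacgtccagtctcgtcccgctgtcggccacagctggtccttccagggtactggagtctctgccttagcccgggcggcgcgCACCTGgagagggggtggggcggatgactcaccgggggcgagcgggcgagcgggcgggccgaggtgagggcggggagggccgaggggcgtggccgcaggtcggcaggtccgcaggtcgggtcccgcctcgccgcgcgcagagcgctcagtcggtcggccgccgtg

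The *Cldn8* window held none of the 3 motifs, and 50.4% of its bases were G or C, against a median of 51.2% over the 33469 windows of the table. *Cldn7* held 4 matches to CAGGTG, *Ocln* 2, *Cldn3* and *Epcam* 1 each, and *Cldn1* and *Tjp1* 0. A match to CAGGTG was present in 15.9% of all windows. AACCGGTT (0.146% of all windows) and TATAAA (12.9%) were found in none of the 7. These are matches of letters only, and binding of any factor was not measured.

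*Cldn8* encodes claudin-8, a claudin of the kidney's collecting duct and of other tight epithelia. Its signal, a linear array intensity, was 476.9, 397.3 and 420.8 in Ept2 and 266.4, 278.9 and 269.5 in Ept9, 192.6, 228.8 and 208.1 in Ept6, and 173.1, 215.1 and 174.0 in Ept1. The lowest Ept2 array (397.3) lay above the highest of the 9 other arrays (278.9), an order that 357 of the 18607 tested probe sets (1.92%) had. The line means were 431.7 ± 40.9 in Ept2, 271.6 ± 6.51 in Ept9, 209.8 ± 18.2 in Ept6 and 187.4 ± 24.0 in Ept1 (SD, n = 3 each). In this order Ept2 and Ept9 did not overlap, Ept9 and Ept6 did not overlap, and Ept6 and Ept1 overlapped.

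The mean *Cldn8* signal in Ept2 was 2.30 times that in Ept1, 2.06 times that in Ept6 and 1.59 times that in Ept9. Ept9 in turn was 1.45 times Ept1 and 1.29 times Ept6, while Ept6 was 1.12 times Ept1. On the log2(signal + 16) scale the difference of a line from the mean of the other 3 was 0.92 for Ept2 (a fold of 1.89), 0.07 for Ept9, -0.40 for Ept6 and -0.60 for Ept1, each with a standard error of 0.088. Because each line is set against the other 3, the high Ept2 value also lowers the differences of the other lines. *Cldn8* lies on chromosome 11, which carries no COP segment in any of the 4 lines by their labels.

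**Figure D1:**
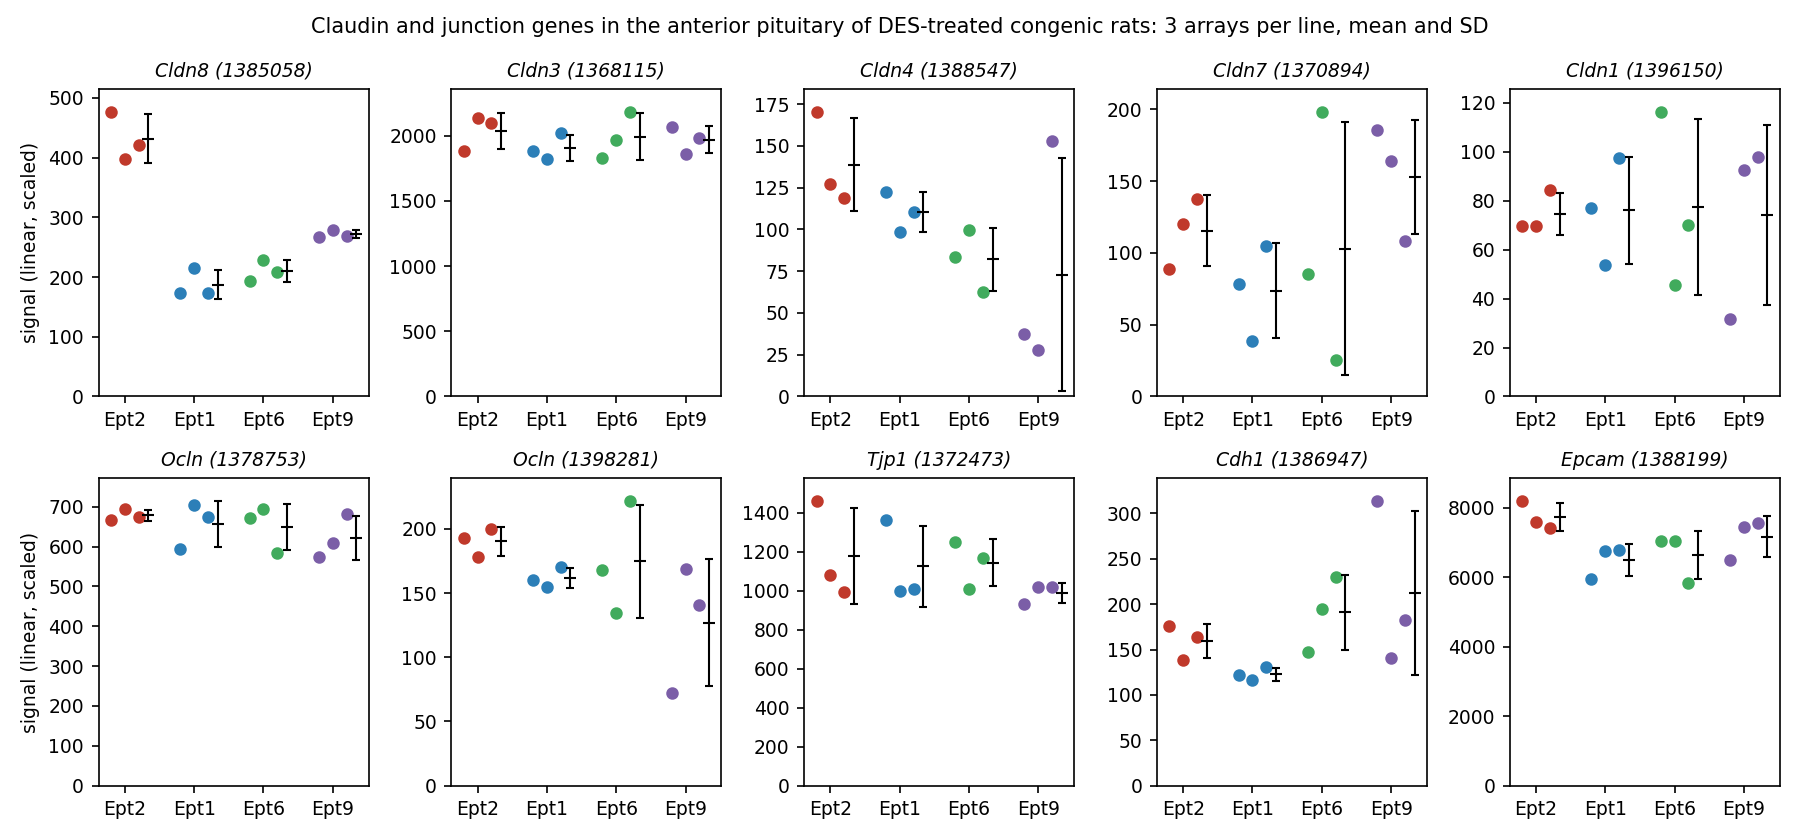
Signal (linear scale, from 0) of the 10 bright probe sets of claudin and junction genes, with 1 point per array and 3 arrays per line, and the line mean and SD in black beside them. The 3 Ept2 arrays of *Cldn8* (397.3 to 476.9) sit above the 9 others, while every pair of lines overlaps for *Cldn3*, *Tjp1*, *Cldn1* and the brighter *Ocln* probe set.

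The nearest tested genes around *Cldn8* on chromosome 11 were *Grik1*, *Cct8* and *Rwdd2b* on one side, at 5, 17 and 19 genes away. On the other side they were *Tiam1*, *Sod1* and *Scaf4*, at 49, 54 and 55 genes away, so most are not close neighbours. Their Ept2 differences ran from -0.18 to 0.15 on the log2 scale, and none passed the test in limma. Of all tested probe sets 0.801% passed in Ept2, so none among so few genes says little.

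The 9 measured genes had 14 probe sets. The 4 dim ones had signals of 0.5 to 12.4 and 3.6 to 63.9 (both *Cldn1*), 1.1 to 22.0 (*Cdh1*) and 1.8 to 76.1 (*Tjp1*), and were left out because their mean fell under 65.2, the signal below which probe sets were not tested. That left 10 probe sets, at least 1 for each of the 9 genes. Leaving *Cldn8* aside, 0 of the other 9 passed the limma F test among the 4 lines at an adjusted p of 0.05, which 185 of all 18607 tested probe sets (0.994%) did. Nor did any of these 9 pass in a single line set against the other 3. The share of all probe sets called in that way was 0.801% in Ept2, 0.193% in Ept1, 0.161% in Ept6 and 0.683% in Ept9.

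These 9 probe sets, of 8 genes, gave adjusted F-test p-values of 0.417 to 0.994 in limma. At an unadjusted p of 0.05, 0 of the 9 passed, against 14.1% of all tested probe sets, and the smallest unadjusted p was 0.0812, for *Cdh1* in the limma fit. In Ept2, 8 of the 9 differences were positive, with a median of 0.11 on the log2 scale, against a median of 0.01 and 51.8% positive over all tested probe sets. A p-value that misses the threshold does not show that a gene was level across the lines. The upper 95% bound of the Ept2 difference lay under the *Cldn8* value of 0.92 for 7 of the 9 probe sets and above it for *Cldn4* and *Cldn7*. That *Cldn8* value comes from the gene selected on its pattern and has its own 95% interval of 0.73 to 1.11. The upper bound of the dimmer *Ocln* probe set, 0.75, lay inside this interval, and the comparison is a description only.

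*Cldn3* encodes a sealing claudin. Its signal was 1882.5, 2133.6 and 2100.5 in Ept2, 1880.6, 1825.9 and 2019.7 in Ept1, 1832.5, 1965.0 and 2184.8 in Ept6 and 2066.4, 1862.9 and 1983.0 in Ept9. All 4 lines overlapped. The Ept2 difference was 0.06 on the log2 scale (95% interval -0.11 to 0.23), and the adjusted F-test p was 0.910 in limma. Among the 9 probe sets *Cldn3* had the narrowest interval, with an upper limit of 1.17-fold in Ept2.

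*Cldn4* encodes claudin-4, which pairs with claudin-8 in mouse collecting duct cells. Its signal was 170.5, 127.1 and 118.6 in Ept2, 122.6, 98.4 and 110.5 in Ept1, 83.6, 99.9 and 62.6 in Ept6 and 37.2, 27.9 and 153.2 in Ept9. The Ept2 arrays overlapped those of Ept1 and lay above those of Ept6, and the 3 Ept9 arrays were far apart from each other, with 2 of them the lowest of all 12. The Ept2 difference was 0.67 (95% interval -0.06 to 1.40) and the Ept9 difference -0.75 (-1.48 to -0.02) on the log2 scale, with an adjusted F-test p of 0.458 in limma. Without Ept9 replicate 3, the adjusted p became 0.0257, the Ept2 difference 0.87 (adjusted p = 0.0416) and the Ept9 difference -1.35 (adjusted p = 0.0153) in limma. Leaving out any other single array gave adjusted F-test p-values of 0.452 to 0.654 in limma, so *Cldn4* was called only with that 1 array left out.

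*Cldn7* encodes claudin-7 and lies on chromosome 10, the chromosome of the Ept9 segment. Its signal was 88.7, 120.3 and 137.7 in Ept2, 78.3, 38.3 and 104.6 in Ept1, 85.4, 198.3 and 25.2 in Ept6 and 185.9, 163.7 and 108.6 in Ept9. The Ept9 arrays lay above those of Ept1, every other pair of lines overlapped, and Ept6 alone spanned the whole range. The Ept9 difference was 0.70 (95% interval -0.21 to 1.60) and the Ept2 difference 0.23 (-0.67 to 1.14) on the log2 scale, with an adjusted F-test p of 0.625 in limma. Of the 12 arrays, 2 gave a signal under 65.2.

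*Cldn1*, which encodes the claudin of the skin barrier in mouse, gave 69.6, 69.6 and 84.6 in Ept2 and between 31.6 and 116.4 in the 9 other arrays. Its Ept2 difference was 0.04 (95% interval -0.59 to 0.68) and its adjusted F-test p 0.994 in limma, and 3 of 12 arrays were under 65.2. A line difference within this interval was not detectable for *Cldn1*.

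*Ocln* was read by 2 probe sets. The brighter gave 667.7, 694.8 and 674.5 in Ept2 and 574.0 to 703.7 in the other lines, with an Ept2 difference of 0.08 (95% interval -0.10 to 0.26). The dimmer gave 193.2, 178.1 and 200.2 in Ept2 and 71.9 to 221.7 in the other lines, with an Ept2 difference of 0.32 (-0.12 to 0.75). On the dimmer one the Ept2 arrays lay above those of Ept1 and Ept9 and overlapped those of Ept6, while on the brighter one every pair of lines overlapped. The adjusted F-test p was 0.849 for the brighter and 0.507 for the dimmer in limma. The dimmer probe set was lowest in Ept9 (71.9, 168.4 and 140.5), a difference of -0.48 on the log2 scale that the brighter one (-0.09) did not show at that size.

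*Tjp1* gave 1460.2, 1082.6 and 995.5 in Ept2 and 930.9 to 1364.6 in the other lines. Its highest value was 1 Ept2 array, and the other 2 Ept2 arrays lay within the other lines. The Ept2 difference was 0.11 on the log2 scale (95% interval -0.18 to 0.40), and the adjusted F-test p was 0.776 in limma.

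*Cdh1* gave 121.8, 116.4 and 130.4 in Ept1, against 175.4, 138.7 and 163.6 in Ept2, 147.7, 194.9 and 230.2 in Ept6 and 313.6, 141.2 and 182.2 in Ept9. The 3 Ept1 arrays lay below all 9 others, as in 0.537% of all tested probe sets, and Ept9 was the most spread line. The Ept1 difference was -0.51 on the log2 scale (95% interval -0.94 to -0.08), with an adjusted p of 0.556 in limma. In Ept2 the difference was -0.07 (-0.50 to 0.36), the only negative one among these 9 probe sets.

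*Epcam* lies on chromosome 6, the chromosome of the Ept1 segment. Its signal was 8191.4, 7601.1 and 7425.2 in Ept2, 5955.2, 6757.7 and 6768.7 in Ept1, 7038.3, 7038.7 and 5833.1 in Ept6 and 6494.9, 7448.4 and 7550.5 in Ept9. The Ept2 arrays lay above those of Ept1 and Ept6 and overlapped those of Ept9. The order of the line means was the same as for *Cldn8*, with every pair of neighbours in that order overlapping. The Ept2 difference was 0.20 on the log2 scale (95% interval 0.01 to 0.39), with an adjusted p of 0.332 in limma.

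**Figure D2:**
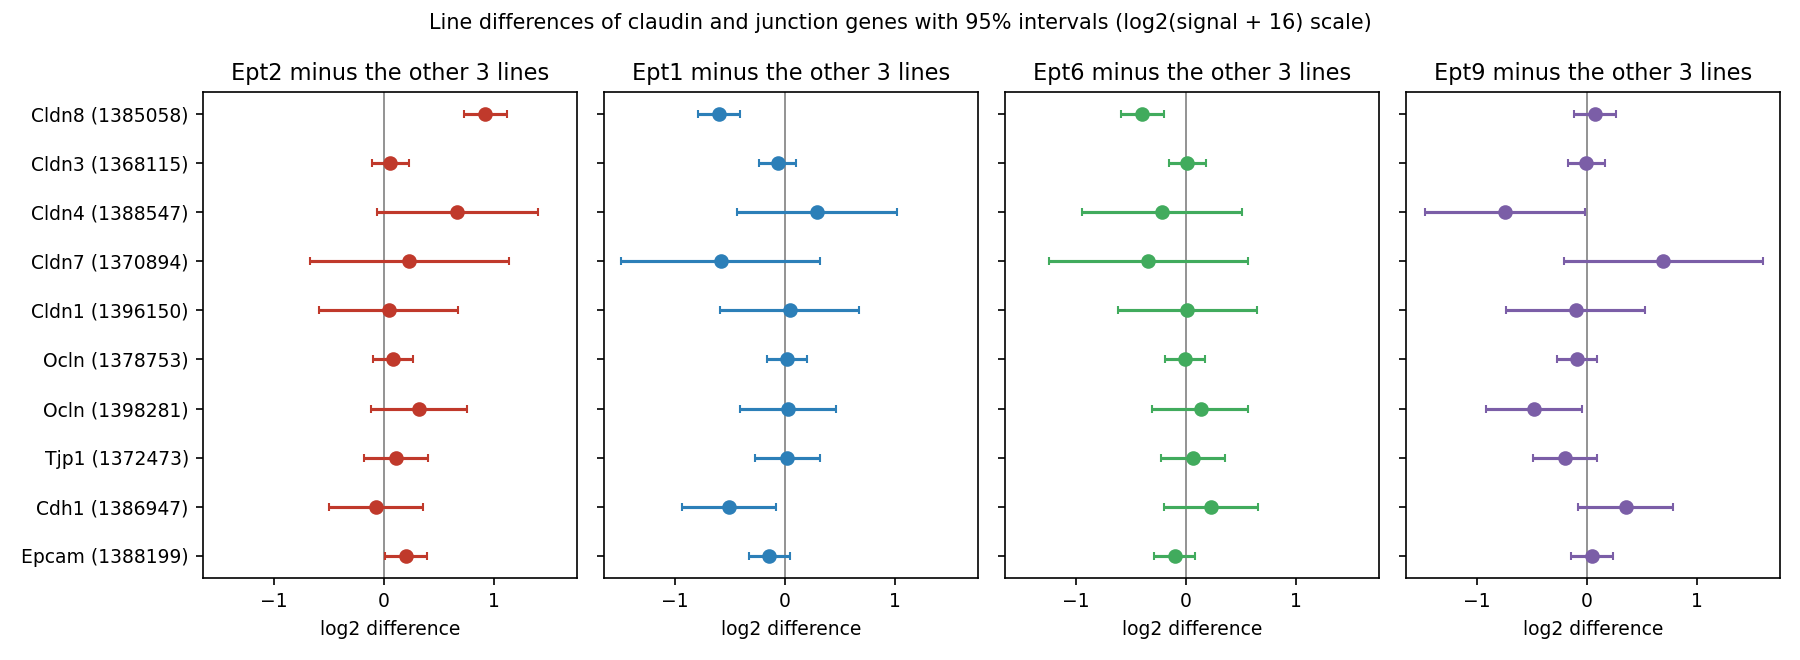
Difference of each line from the mean of the other 3 lines on the log2(signal + 16) scale, with 95% intervals from limma, for the 10 bright probe sets. *Cldn8* is at 0.92 in Ept2 and is shown as a description only, while the intervals of *Cldn4* and *Cldn7* are the widest.

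Whether the other genes followed *Cldn8* from array to array was read within lines, since the *Cldn8* arrays fall into separate levels by line. Each probe set was fitted on *Cldn8* with the line as a factor. The correlation of deviations from the line means over the 12 arrays was 0.363 for *Epcam*, 0.286 and -0.038 for the *Ocln* probe sets, 0.082 for *Cdh1*, 0.033 for *Cldn4*, -0.063 for *Tjp1*, -0.152 for *Cldn7*, -0.401 for *Cldn3* and -0.443 for *Cldn1*. By rank (Spearman's rho) the values were 0.182 for *Epcam*, 0.119 and 0.105 for *Ocln*, 0.259 for *Cdh1*, -0.014 for *Cldn4*, -0.112 for *Tjp1*, -0.266 for *Cldn7*, -0.189 for *Cldn3* and -0.438 for *Cldn1*. The correlation was positive for 4 of the 9 probe sets, against 50.6% of all probe sets.

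In that limma fit 0 of 18606 probe sets (0%) passed, with a smallest adjusted p of 0.573 and 1081 at an unadjusted p under 0.05, and 0 of the 9 junction probe sets reached that unadjusted threshold. Within lines *Cldn8* varied with an SD of only 0.12 on the log2 scale, against a range of 1.38 over the 12 arrays, so little was left within lines for another gene to follow. Without the 2 arrays farthest from the *Cldn8* median (Ept2 replicates 1 and 3), the within-line correlation was -0.183 for *Cldn3* and -0.623 for *Tjp1*. Such shifts show that these correlations rest on few arrays.

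**Figure D3:**
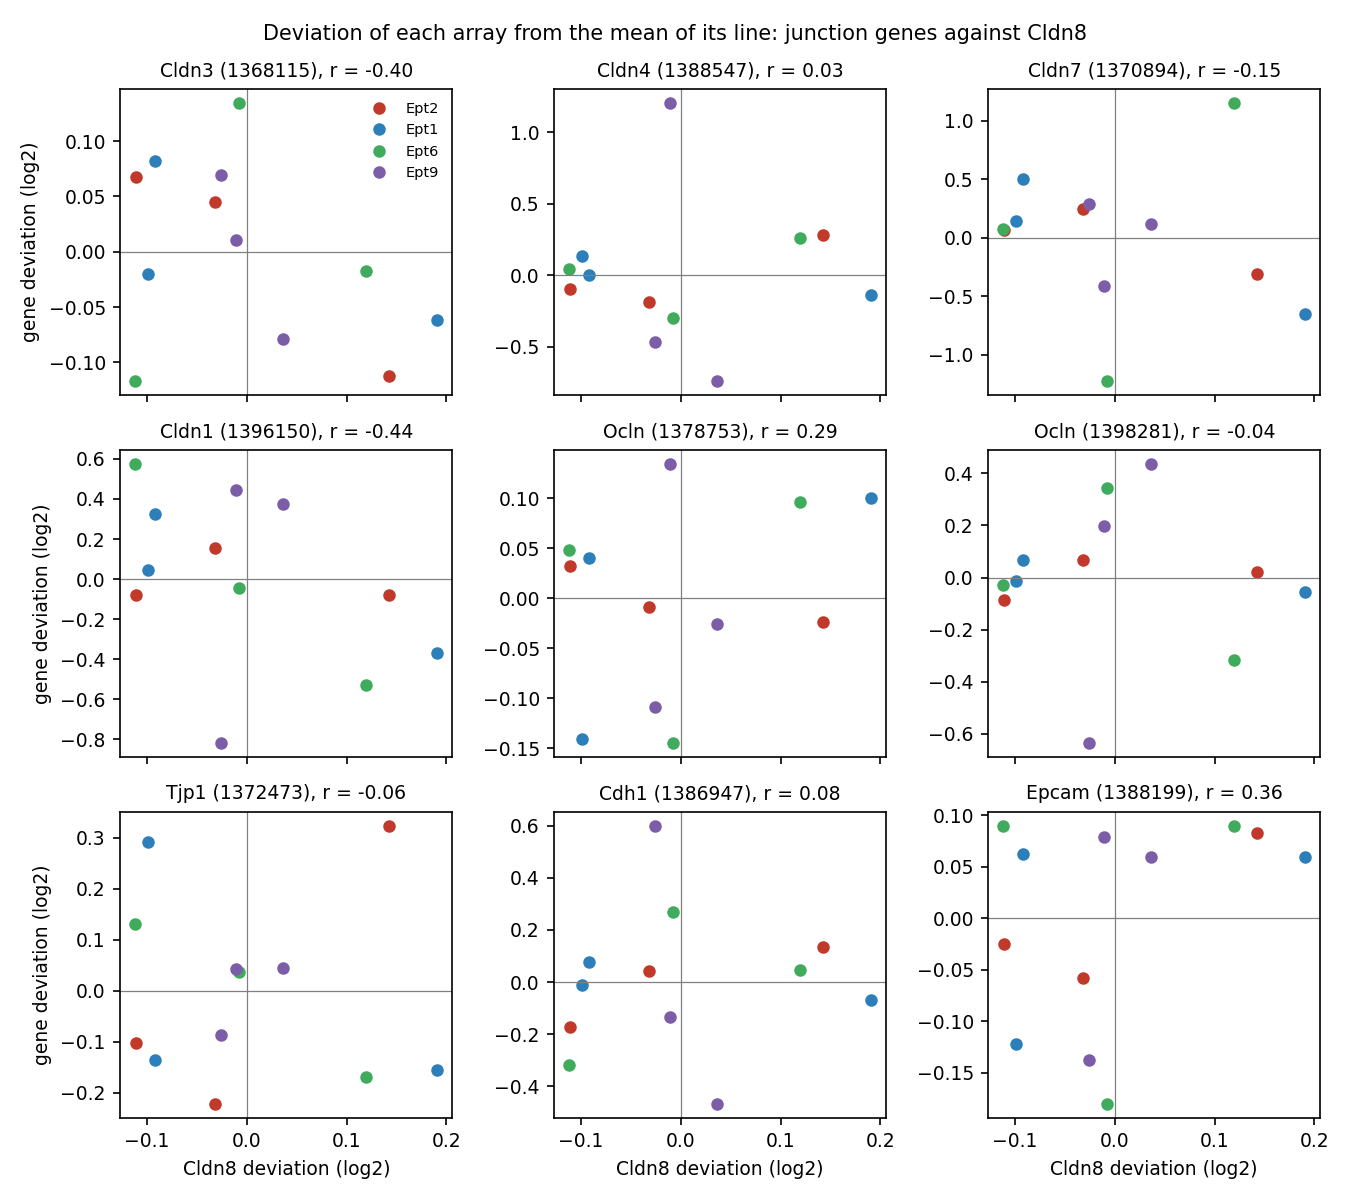
Deviation of each array from its line mean on the log2 scale, for 9 probe sets (vertical axes, scaled separately) against *Cldn8* (horizontal axis), with 1 point per array coloured by line. The largest positive correlation is 0.363 (*Epcam*) and the largest negative one -0.443 (*Cldn1*).

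The genes whose signal over all 12 arrays was most like that of *Cldn8* were named by Pearson's r on the log2 scale, as a description in which the 3 Ept2 arrays stand apart from the other 9. They were *Kcnip3* (r = 0.957), *Lrrc57* (0.943), *Epdr1* (0.942), *Galc* (0.940) and *Ccndbp1* (0.931). *Kcnip3*, which encodes a calcium-binding protein that partners potassium channels, gave 382.4, 311.0 and 338.9 in Ept2 and 138.9 to 267.7 in the other lines. The most opposite were *Creb3l1* (-0.961), *Ggt7* (-0.937), *Exoc5* (-0.920), *Lta4h* (-0.912) and *Bet1l* (-0.910). *Creb3l1*, a membrane-bound transcription factor, gave 9943.9, 10720.6 and 10073.0 in Ept2 and 11209.1 to 12436.6 in the other lines. None of the 10 is a claudin or a listed junction gene. Only 9 other member probe sets and 53 other junction genes were among the 18607 tested probe sets, so none among 10 says little. Of the 10, 5 lie on chromosome 3, where 7.49% of the placed probe sets lie. That share was not tested.

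Other junction genes came from 5 lists of claudins, tight junction partners, adherens junction, desmosome and gap junction genes, 100 genes in all, of which 76 were measured and 53 tested. In the F test among lines, 0 of the 53 passed in limma (0.994% of all tested probe sets) and 12 had an unadjusted p under 0.05 (14.1% of all). Against the other 3 lines 1 gene was higher in Ept2 and 0 were lower (0.801% of all probe sets were called there in either direction), and 0 passed in Ept1, Ept6 and Ept9. In Ept2, 38 of the 53 differences were positive with a median of 0.11 on the log2 scale (all probe sets 0.01), against medians of -0.04 in Ept1, -0.04 in Ept6 and -0.05 in Ept9.

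The gene called in Ept2 was *Cldn10*, which encodes a claudin that forms ion-selective channels between cells. It gave 143.6, 143.9 and 139.7 in Ept2, against 67.3, 106.6 and 78.3 in Ept1, 73.9, 75.5 and 108.3 in Ept6 and 68.8, 60.4 and 71.0 in Ept9. All 3 Ept2 arrays lay above the 9 others. The difference was 0.76 ± 0.13 on the log2 scale (SE), with an adjusted p of 0.0290 in limma, while the F test among all lines gave 0.0583. The Ept2 call held in 10 of 21 alternatives. It was lost with no filter on dim probe sets (adjusted p = 0.0922), with the eBayes trend (adjusted p = 0.0616) and on leaving out any 1 of Ept1 replicate 3, Ept2 replicate 1, 2 or 3, Ept6 replicate 1, or Ept9 replicate 1 or 2, with adjusted p-values of 0.055 to 0.106 in limma. *Cldn10* lies on chromosome 15, which by the labels carries no COP segment in any line.

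By kind, the Ept2 difference was positive for 3 of 4 other claudins, 18 of 24 tight junction partners, 10 of 13 adherens junction genes, 6 of 8 desmosome genes and 1 of 4 gap junction genes. *Ctnnb1*, which encodes beta-catenin and is the brightest adherens gene, had an Ept2 difference of -0.05. *Gja1*, which encodes connexin 43, had 0.32, with an adjusted F-test p of 0.104 in limma. It was the 1 positive gap junction gene of the 4 tested, whose median Ept2 difference was -0.38. *Ybx3*, *Pkp4* and *Cldnd1*, the brightest genes of the tight junction, desmosome and other claudin lists, had Ept2 differences of 0.005, 0.15 and -0.04 in that order.

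Genes of the epithelial state outside the junction (29 listed, 17 tested) included 2 past the F test (0.994% of all probe sets) and 1 more past a single-line test in Ept9 (0.683% of all). *Spint1*, which encodes an inhibitor of epithelial serine proteases, gave 2392.8, 2556.2 and 2533.8 in Ept2 and 1077.0 to 1401.0 in the other lines. The difference was 0.98 on the log2 scale with an adjusted p of 0.000252 in limma, past the threshold in 22 of 22 alternatives, and *Spint1* lies on chromosome 3, the chromosome of the Ept2 and Ept6 segments. In Ept9 the difference was -0.39 with an adjusted p of 0.0423 in limma. As for *Cldn8*, the high Ept2 value itself lowers this difference, so it is not a separate Ept9 result. *Rab25*, which encodes a small GTPase of membrane recycling in epithelial cells and lies on chromosome 2, gave 459.5, 507.8 and 505.3 in Ept2 and 293.8 to 382.6 in the other lines. Its difference was 0.49 with an adjusted p of 0.0217 in limma, and this Ept2 call held in 17 of 22 alternatives. It was lost with no filter (adjusted p = 0.0793), without Ept2 replicate 2 (adjusted p = 0.0601), without Ept2 replicate 3 (adjusted p = 0.0998) and without Ept2 replicates 1 and 3 together (adjusted p = 0.124). The F test of *Rab25* was nearer the threshold, with an adjusted p of 0.0441 in limma and 0.0132 to 0.197 under the alternatives. That F-test value was above 0.05 with no filter and with quantile or median scaling. It was also above 0.05 on leaving out any single array other than Ept6 replicate 1 (adjusted p = 0.0315 in limma). *Krt19*, a simple-epithelium keratin gene on chromosome 10, was instead higher in Ept9, with 227.9, 160.4 and 196.1 against 64.7 to 136.9 in the other lines, a difference of 0.98 with an adjusted p of 0.0438 in limma. That call held in 6 of 21 alternatives and was lost on leaving out any single array other than Ept1 replicate 3 (adjusted p up to 0.214). Of 7 tested genes of the mesenchymal transition list, among them *Zeb1*, *Zeb2*, *Snai1* and *Vim*, 0 passed in any line. By line, 0.161% to 0.801% of all tested probe sets did, so 0 of 7 says little. *Spint2*, the brightest epithelial gene, had an Ept2 difference of 0.05.

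**Figure D4:**
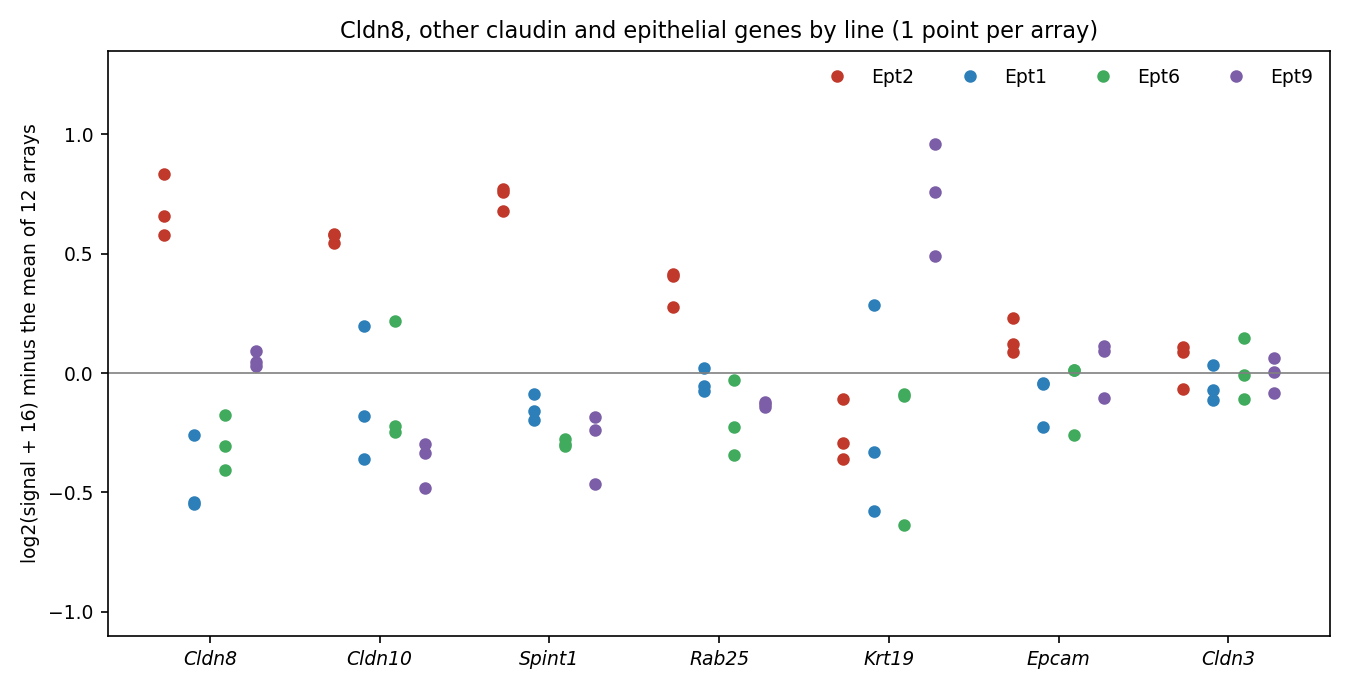
Signal of 7 genes on the log2(signal + 16) scale, minus the mean of all 12 arrays, with 1 point per array coloured by line (Ept2 leftmost within each gene). The Ept2 arrays lie above all others for *Cldn8*, *Cldn10*, *Spint1* and *Rab25*, the Ept9 arrays for *Krt19*, while for *Epcam* the Ept2 arrays overlap those of Ept9 and for *Cldn3* every pair of lines overlaps.

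Other measures also moved with Ept2, and their part in the *Cldn8*, *Cldn10*, *Spint1* and *Rab25* values was not tested. The 3' minus 5' log2 difference of the *Gapdh* control probe sets, a sign of RNA integrity, was 0.314 to 0.422 in Ept2 and 0.088 to 0.278 in the other lines. For the beta-actin and hexokinase controls Ept2 had the highest line mean, with arrays at 1.756 to 1.852 and 1.075 to 1.544. These overlapped Ept1, at 1.589 to 1.785 and 0.640 to 1.403. The summed signal of 11 measured folliculostellate and stem cell genes was 4516 to 5429 in Ept2 and 3521 to 4445 in the other lines, with 8 of 10 tested genes positive in Ept2 and 0 called. The summed signal of 8 hormone cell genes (7 tested, 0 called) was 134494 to 150539 in Ept2 and 111760 to 132534 in the other lines, and *Prl*, which defines lactotrophs, was between 41979 and 51767 on every array. The list of posterior and intermediate lobe genes had 7 genes, with *Avp*, *Oxt* and *Rax* among those below the limit for testing. *Pcsk2*, a prohormone convertase gene and the only gene of that list tested, was lower in Ept2 (875.7 to 1144.7, against 1310.5 to 1856.5 in the other lines, adjusted p = 0.0495 in limma). That call held in 5 of 22 alternatives and was lost on leaving out any single array other than Ept1 replicate 1. Of the endothelial, stromal and leukocyte genes 0 of 6 tested were called in each list, and 0 of 2 of the blood genes. In Ept2, 5 of 6 endothelial, 2 of 6 stromal, 2 of 6 leukocyte and 1 of 2 blood genes were positive. Over all tested probe sets 0.994% passed the F test and 0.161% to 0.801% passed in a single line. At such shares, 0 called in any of these short cell type lists says little. In whole glands a change in the number of cells of a type and a change in RNA per cell cannot be told apart.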

How the data were processed

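Members and gene lists were chosen with earlier results of these data known. The authors deposited 1 linear intensity value per probe set and array, 31099 probe sets on 12 arrays, scaled so that the mean of every array after trimming 2% at each end was 500.18 to 500.19. Scanner software and background correction: not given in the sources used here. No column was left unused. The labels conflict on replication: the series text describes separate animals for all 3 arrays of a line and the sample notes fewer independent replicates, so p-values may measure spread that is partly technical. Precision is limited by having 3 arrays per line.

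From the intensities log2(signal + 16) was computed. The 57 control probe sets and the 12435 dim ones were not tested, leaving 18607. Dim meant a mean of log2(signal + 16) below the 40th percentile, which corresponds to a signal of 65.2. On this scale the folds of dim genes are understated. limma 3.58.1 in R 4.3.3 gave a moderated F test among lines, each line minus the mean of the other 3, and a fit on *Cldn8* with line as a factor, with Benjamini-Hochberg adjustment over all tested probe sets at 0.05. The planned fit on *Cldn8* over all 12 arrays was not read because its levels separate by line. The methods were tested on simulated data. Gene names came from the platform annotation (1 symbol for 20832 probe sets, several for 436, none for 9831), and only probe sets with exactly 1 symbol were used. Chromosomes came from RefSeq (GRCr8).

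All 10 members were named. In addition the rule named the 5 genes most like and the 5 most unlike *Cldn8*, up to 6 called genes of the junction and epithelial lists, and the brightest gene of each list. The *Cldn8* neighbours, *Zeb1*, *Zeb2*, *Snai1* and *Vim* were named after values were seen. Junction lists used the brightest probe set per gene. Alternatives tried: leaving out each array, array quality weights, a trended eBayes prior, replicate number as block, quantile or median scaling, the dim filter removed or set at the 60th percentile, and pseudocounts of 64 and 1.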

Additional observations from a re-analysis of the deposited data

How the results depend on the processing

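Over 16 alternatives (pseudocounts, scaling and left-out arrays) the *Cldn8* difference stayed between 0.80 and 0.98 in Ept2 and between -0.70 and -0.51 in Ept1 on the log2 scale. The counts of the 10 junction probe sets that follow include *Cldn8*, the gene selected on its pattern, for which no test is read. In the main fit *Cldn8* alone made up the counts of 1 in the F test, in Ept1 and in Ept2. Those counts, and whether they held, are therefore not read as results. Only the changes through *Cldn4* concern another gene. The count of the 10 junction probe sets past the F test was 1, and 1 to 2 on leaving out single arrays, with 2 only without Ept9 replicate 3 (*Cldn4* in addition). On leaving out single arrays the count was 1 to 2 in Ept2 and 0 to 1 in Ept9, again through *Cldn4* without that array. The count in Ept1 was 1, which was *Cldn8* alone and is not read. That count became 0 with no filter and 0 with the replicate block. On leaving out single arrays it was 0 to 1 (0 without Ept1 replicate 1 or 3, Ept2 replicate 3, Ept6 replicate 3, or any Ept9 array). The other junction genes past the F test numbered 0, against 1 with a pseudocount of 64 (*Cldn10*), 1 with the filter at the 60th percentile and 1 with the eBayes trend (both *Gja1*), and 0 to 1 on leaving out single arrays. The cause of these shifts was not tested. Of 184 F tests of the 9 other probe sets under alternatives, 1 crossed the threshold. Deviations of arrays with the same replicate number correlated at -0.137 to 0.0787 over 18 pairs. Such low values do not settle whether these arrays were handled together, and the main fit treats them as unpaired. The replicate block gave 84 calls over all probe sets in the F test, against 185 without it. With the block the calls of *Cldn10* (adjusted p = 0.0624), *Rab25* (0.0546), *Krt19* (0.066) and *Pcsk2* (0.0759) were lost in limma and that of *Spint1* held. That count ranged over 73 to 142 on leaving out single arrays, and was 419 under the eBayes trend, 282 under a 60th percentile filter and 53 unfiltered. Dim genes such as *Cldn1*, *Cldn4* and *Cldn7* have wide intervals, which limits what can be read for them.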
